A study of Rattus norvegicus with 15 samples.

Results

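The endothelial receptor and transcription factor genes of the rat kidney were described over 10 genes: the receptor tyrosine kinases Tie1 and Tek, the angiopoietin Angpt4, the VEGF receptors Kdr and Flt1, the transcription factors Sox17 and Vezf1, the surface and secreted proteins Pecam1 and Vwf, and the caveolar protein Cav1. Every probe set whose platform gene symbol was one of these names was taken, which gave 24 of the 26379 probe sets, and 10 of 10969 named genes, on 3 oligonucleotide array designs called A, B and C. The kidneys were taken at 5 weeks of age from rats congenic for chromosome 10 and from Dahl salt-sensitive (Dahl S) rats, the strain on which the congenic was built. In a congenic, a segment of 1 chromosome comes from a donor strain and the rest of the genome is shared. Total RNA of kidneys numbered 1 to 5 was hybridised to each design, 15 arrays in all. On designs B and C, kidneys 4 and 5 were congenic (n = 2) and kidneys 1 to 3 Dahl S (n = 3). On design A the labels call all 5 kidneys Dahl S, in conflict with the numbers on B and C, so the strain of kidneys 4 and 5 was left unsettled there and their values are given kidney by kidney. The labels name neither the donor strain nor the extent of the segment. They do not say whether each kidney is a separate animal, so a p-value here reflects the scatter of these hybridisations, part of which may be technical.

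Endothelial cells line the renal arteries, the glomerular tuft, the peritubular capillaries and the vasa recta. Their growth and survival depend on a pair of ligand and receptor systems. VEGF binds Kdr, which carries most of the growth signal, and Flt1, which holds much of the ligand without passing a strong signal on. Angiopoietins bind Tek (Tie2), and Tie1, which has no high-affinity angiopoietin ligand of its own, modulates Tek. Sox17 is an arterial SoxF transcription factor and Vezf1 a zinc finger factor named for vascular endothelium. ETS factors bind a GGAA core and act on many endothelial promoters.

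The promoters of Vezf1, Tie1 and Angpt4 are shown because at least 1 probe set of each gene had both congenic kidneys on one side of every Dahl S kidney. They are the RefSeq windows of rat assembly GRCr8, 250 bases before to 50 after the gene start, written along the gene. Vezf1 lies at chr10:73356864-73357163 (plus strand), Tie1 at chr5:137304932-137305231 (minus strand) and Angpt4 at chr3:160880480-160880779 (plus strand). Capitals mark GGAAG, an ETS core, or its reverse complement CTTCC.
Vezf1: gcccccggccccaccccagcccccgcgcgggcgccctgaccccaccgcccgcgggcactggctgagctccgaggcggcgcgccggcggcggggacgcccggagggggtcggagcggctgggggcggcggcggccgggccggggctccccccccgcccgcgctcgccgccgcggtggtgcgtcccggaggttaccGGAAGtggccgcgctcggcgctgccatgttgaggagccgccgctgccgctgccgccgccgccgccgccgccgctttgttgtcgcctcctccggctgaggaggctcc
Tie1: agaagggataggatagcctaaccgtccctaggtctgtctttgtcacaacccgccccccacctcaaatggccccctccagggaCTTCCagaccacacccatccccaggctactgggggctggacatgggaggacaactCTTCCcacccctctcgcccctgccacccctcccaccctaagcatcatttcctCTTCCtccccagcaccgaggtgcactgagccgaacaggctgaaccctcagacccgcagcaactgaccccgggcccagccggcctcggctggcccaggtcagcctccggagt
Angpt4: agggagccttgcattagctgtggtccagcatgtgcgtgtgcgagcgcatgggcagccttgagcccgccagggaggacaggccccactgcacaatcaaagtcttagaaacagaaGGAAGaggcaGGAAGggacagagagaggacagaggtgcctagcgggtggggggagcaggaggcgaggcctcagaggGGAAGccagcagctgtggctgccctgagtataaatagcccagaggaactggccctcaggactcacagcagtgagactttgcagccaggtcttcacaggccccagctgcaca
Vezf1 held 1 such match, Tie1 3 (all as CTTCC) and Angpt4 3 (all as GGAAG). The same letters occurred on either strand in 70.1% of the 33469 rat promoter windows of this length. The SOX core ACAAT, searched on both strands as ACAAT or ATTGT, occurred once in the Angpt4 window and in 33.7% of all windows, and it was not among the letters of the Vezf1 and Tie1 windows. The 6 of 10 genes with a promoter window in the table were Angpt4, Cav1, Flt1, Kdr, Tie1 and Vezf1. A match is a string of letters and not a measured binding site. The array annotation names no genome build, so these coordinates belong to the promoter windows alone.

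The deposited values were linear signal intensities, scaled so that the mean of each array, without the top and bottom 2% of values, lay between 1000.6 and 1001.3. The median signal of an array ranged from 294.5 to 334.3 in design A, from 472.8 to 519.5 in B, and from 491.3 to 524.4 in C. For fold differences, values were raised to a floor (85.1 on A, 140.1 on B, 153.6 on C), below which they have no order. Probe sets with a mean at or above the median of all values of their design (319.5, 485.8 and 510.3) were tested, and 15 of the 24 member probe sets reached it: 5 of 8 in design A, 8 of 11 in B, and 2 of 5 in C. Kidney tubule markers were plainly present, since 8 of 8 reached the filter on A. Of 15 endothelial markers, 14 were on the arrays and 13 reached the filter on at least 1 design, with Vwf the exception. In whole kidney RNA, fewer endothelial cells and less RNA per endothelial cell cannot be told apart. Signals of different probe sets are not set against each other.

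Between the strains, the probe sets of Tie1 and of Sox17 had differences of both signs, while those of Angpt4, Cav1, Flt1 and Tek did not. Of the latter, 1 Angpt4 and 1 Tek probe set had log2 differences near 0 (0.0050 and 0.02), and the Flt1 probe sets on C were under the filter. On B, limma with Benjamini-Hochberg adjustment called 4 of 4385 probe sets (0.0912%), and 0 of the 8 tested member probe sets. An unadjusted p under 0.05 was found for 153 of all 4385. Vezf1 and Angpt4 had been chosen from this contrast, and for that reason no p is given for any member on B. On C limma called 0 of 4420 (0%), with 274 at an unadjusted p under 0.05, and 0 of the 2 tested member probe sets. Those 2, of Tie1 and Sox17, reached the filter only through the strain in which they were high, so no p is given for them. Both congenic kidneys lay on one side of all 3 Dahl S kidneys for 5 of 11 member probe sets on B, 4 above and 1 below. This held for 13.8% of all B probe sets without the filter and 17.2% of the tested ones, of which 7.73% had the congenic kidneys above and 9.44% below. On C it held for 2 of 5, 1 above and 1 below, against 17.1% without the filter and 22.4% of the tested ones, 10.2% above and 12.2% below. Since the genes were chosen with results of this contrast known, nothing is read from these counts.

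**Figure D1:**
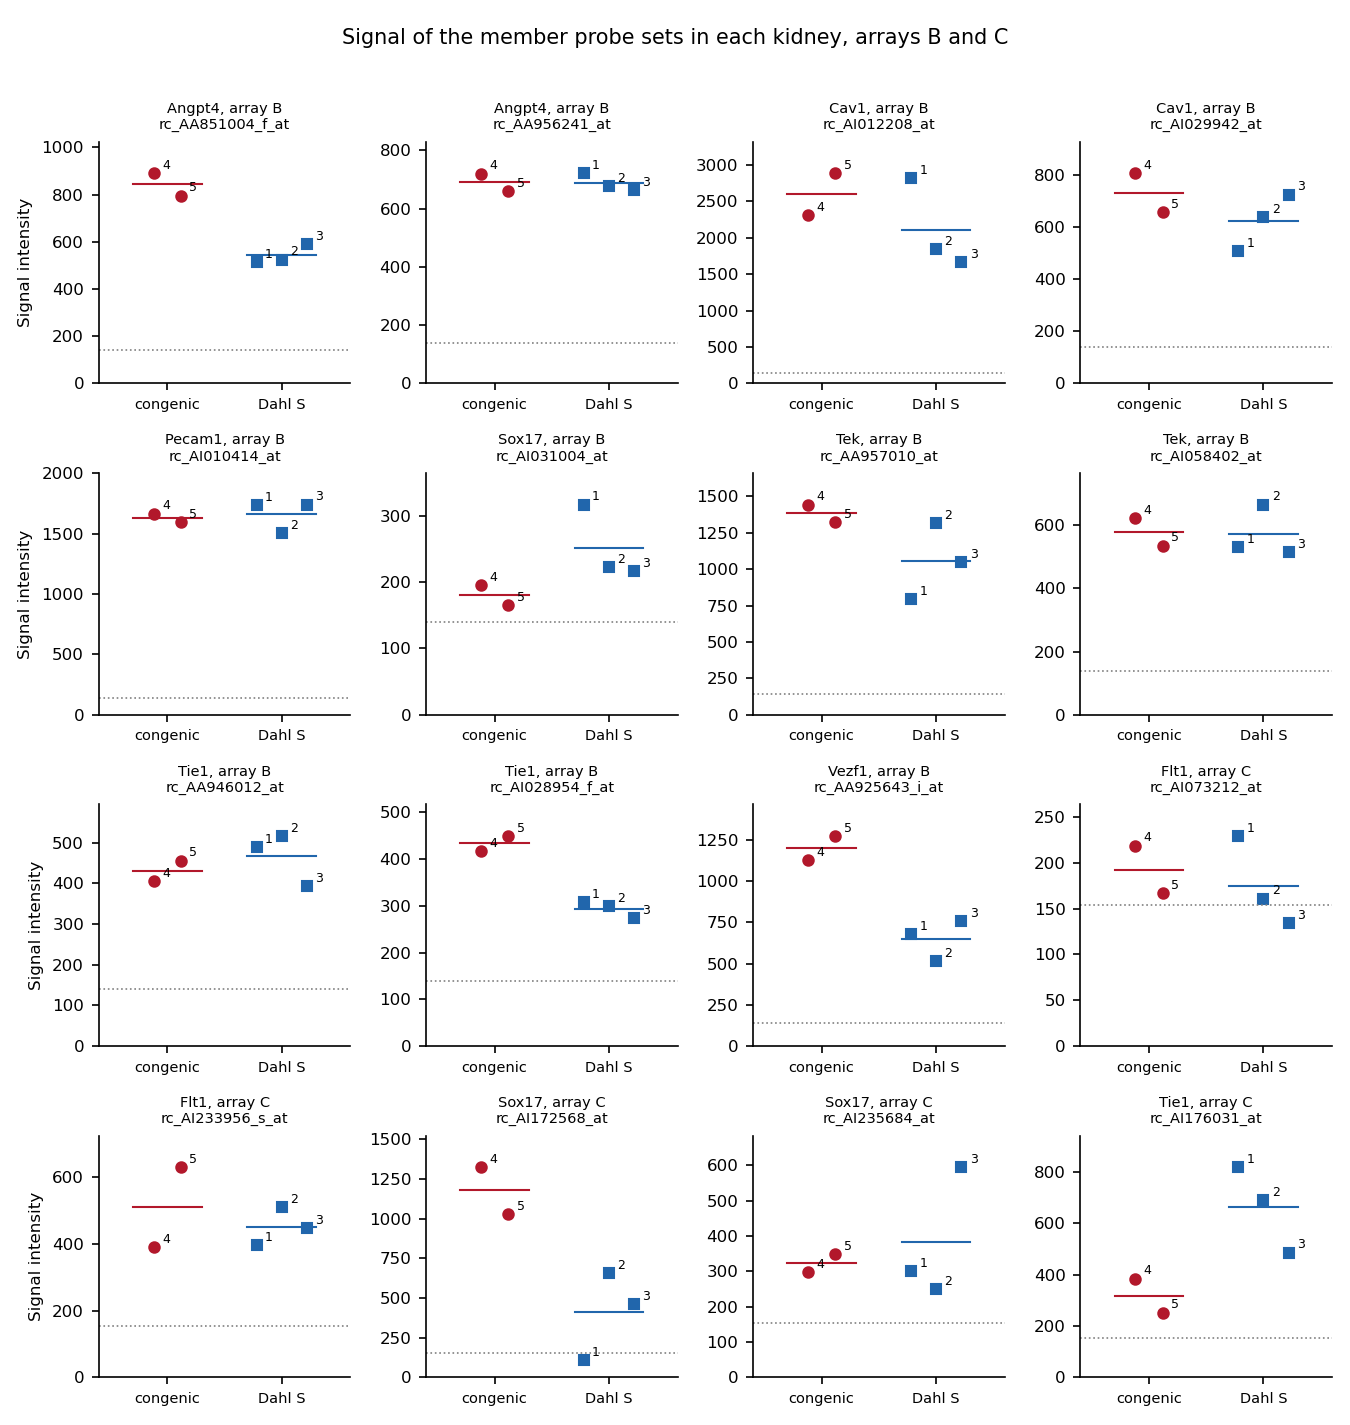
Signal intensity (linear axis from 0) of the 16 member probe sets of arrays B and C in each kidney. Red circles are congenic kidneys 4 and 5, blue squares Dahl S kidneys 1 to 3, horizontal bars the group means and the dotted line the floor; Vezf1, 1 Angpt4, 1 Tek and 1 Tie1 probe set on B and 1 Sox17 probe set on C have both congenic kidneys above all Dahl S kidneys, and 1 Sox17 probe set on B and 1 Tie1 probe set on C have them below.

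Among the receptors, Tie1 had 3 probe sets and each gave a different answer. On C, rc_AI176031_at measured 384.5 and 252.1 in congenic kidneys 4 and 5, against 818.5, 689.1 and 486.0 in Dahl S kidneys 1 to 3. Both congenic kidneys lay below the lowest Dahl S kidney, at 318 ± 93.6 (SD, n = 2) against 665 ± 168 (SD, n = 3). The congenic mean was under the filter, so the probe set was tested only through its Dahl S values and its difference is a description. The log2 difference was −1.06 (SE 0.27), and no p is given for it. On B, rc_AI028954_f_at went the other way, with 417.1 and 449.8 in congenic kidneys against 307.6, 299.0 and 274.2 in Dahl S kidneys (log2 difference 0.56). Its mean stayed under the filter. The third, rc_AA946012_at on B, measured 405.6 and 456.0 in congenic kidneys and 489.2, 516.9 and 393.7 in Dahl S kidneys, which overlapped. Whether the Tie1 probe sets differ from each other was not tested.

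Tek, the angiopoietin receptor, was measured on B alone. Its probe set rc_AA957010_at had 1443.3 and 1320.9 in congenic kidneys and 795.1, 1313.8 and 1050.3 in Dahl S kidneys. Congenic kidney 5 lay only just above Dahl S kidney 2, and the log2 difference of 0.42 (SE 0.22) was close to the spread between the Dahl S kidneys (SD 0.36 on the log2 scale). The other probe set, rc_AI058402_at, measured 578 ± 60.9 in congenic kidneys (SD, n = 2) and 571 ± 82.1 in Dahl S kidneys (SD, n = 3). Its log2 difference was 0.02 (SE 0.17).

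Angpt4, a Tek ligand, also split. The probe set rc_AA851004_f_at measured 890.7 and 796.1 in congenic kidneys, against 515.5, 524.9 and 591.3 in Dahl S kidneys, which did not overlap (log2 difference 0.63, SE 0.14). On the same array rc_AA956241_at measured 720.1 and 661.5 in congenic kidneys and 721.7, 678.1 and 664.8 in Dahl S kidneys. Its log2 difference was 0.0050 (SE 0.13). The named probe sets of B whose pattern over the 5 kidneys was nearest to rc_AA956241_at, the Angpt4 probe set of higher mean signal, by root mean square difference of centred log2 values, were those of Vrk3 (0.0223) and Pacsin3 (0.0227). The spread of rc_AA956241_at itself was 0.0551 on that scale, so its pattern was nearly flat.

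The names of these probe sets end in different suffixes. In this array family the letters f, i and s before at mark probe sets whose probes are shared with related sequences or are too few to be unique. The Angpt4 and Tie1 probe sets higher in congenic kidneys on B carry f, and that of Vezf1 carries i. Across all tested probe sets of B, the strain values did not overlap in 17.5% of the 332 with f, i, r or s and in 17.1% of the 4053 others. On C the shares were 24.6% of 338 and 22.3% of 4082.

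**Figure D2:**
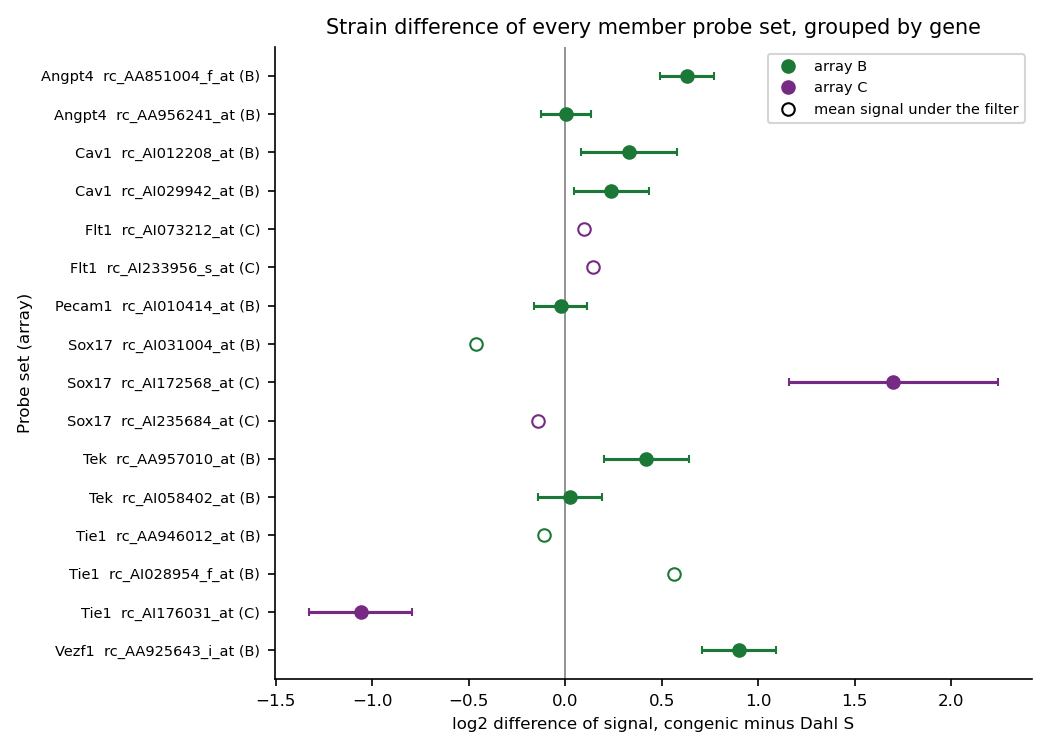
The log2 difference of signal, congenic minus Dahl S, for each member probe set of arrays B (green) and C (purple), 1 row per probe set and grouped by gene; bars are standard errors from the fit across all probe sets, and open points had a mean signal under the filter and have no bar. Probe sets of Tie1 and of Sox17 lie on both sides of 0, from −1.06 to 0.56 and from −0.46 to 1.70.

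Of the VEGF receptors, Kdr was measured on A alone and Flt1 on A and C. On A, where kidneys 4 and 5 have no settled strain, Kdr measured 313.3 and 748.4 in kidneys 4 and 5 and 306.2, 340.9 and 544.5 in Dahl S kidneys 1 to 3. Kidney 5 was the highest and kidney 4 lay within the Dahl S range, so these kidneys lay apart. Flt1 measured 726.9 and 527.9 in kidneys 4 and 5 and 750.3, 726.7 and 752.4 in Dahl S kidneys, with kidney 5 alone set apart. On C, Flt1 measured 389.0 and 629.0 in congenic kidneys and 395.4, 510.3 and 446.2 in Dahl S kidneys for rc_AI233956_s_at, and 218.7 and 166.5 in congenic kidneys against 229.4, 160.9 and 134.1 in Dahl S kidneys for rc_AI073212_at. Both overlapped and both were under the filter. The kidney numbered 5 had the lowest Flt1 signal on A and the highest of rc_AI233956_s_at on C. The probe sets differ and the labels conflict on the strain of that number, so nothing is read from this.

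Sox17 gave the largest difference among the members, in 1 of 4 probe sets. On C, rc_AI172568_at measured 1325.6 and 1032.0 in congenic kidneys, against 111.6, 657.8 and 462.4 in Dahl S kidneys. Every congenic value exceeded every Dahl S value, and Dahl S kidney 1 lay below the floor. The Dahl S mean was under the filter, so the probe set was tested only through its congenic values and its difference too is a description. Its log2 difference was 1.70 (SE 0.54), and no p is given for it. Without Dahl S kidney 1 the difference was 1.08.

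The other Sox17 probe sets did not follow it. On C, rc_AI235684_at measured 298.2 and 348.3 in congenic kidneys and 300.2, 250.9 and 594.7 in Dahl S kidneys. On B, rc_AI031004_at measured 195.1 and 165.7 in congenic kidneys, below the 316.8, 222.0 and 217.1 of Dahl S kidneys (log2 difference −0.46). On A all 5 kidneys lay below the floor for rc_AA799800_at. Of these 4 probe sets only rc_AI172568_at reached the filter.

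Vezf1, which lies on chromosome 10 as the congenic segment does, had 1 probe set on B and 1 on A. On B, rc_AA925643_i_at measured 1125.5 and 1273.4 in congenic kidneys, against 678.1, 516.5 and 754.7 in Dahl S kidneys. The congenic kidneys lay well above the highest Dahl S kidney, a 1.87-fold difference of the log2 means (log2 difference 0.90, SE 0.19), which is a description because this gene was chosen for it. On A, rc_AI639499_s_at measured 938.5 and 1388.0 in kidneys 4 and 5 and 1168.5, 1170.4 and 1187.1 in Dahl S kidneys. The Dahl S kidneys were within 1175 ± 10.2 (SD, n = 3), with kidney 4 below and kidney 5 above all of them. Kidneys 4 and 5 thus did not both lie above the others on A, where the probe set is a different one and their strain is unsettled. The named B probe sets nearest to the Vezf1 pattern over the 5 kidneys were Cry2 (root mean square difference 0.168 on the centred log2 scale), a clock repressor, and a probe set of Mllt6 (0.186), against a spread of Vezf1 itself of 0.479.

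Pecam1 (CD31), an adhesion molecule of endothelial junctions and the other member on chromosome 10, did not separate the strains. On B it measured 1666.4 and 1595.0 in congenic kidneys and 1735.3, 1502.7 and 1741.2 in Dahl S kidneys. The strain values overlapped, with a log2 difference of −0.02 (SE 0.14). On A it measured 849.3 and 1107.9 in kidneys 4 and 5 and 922.3, 848.2 and 987.8 in Dahl S kidneys. Kidney 5 was the highest and kidney 4 lay within the Dahl S range there, as for Kdr on the same array. Pecam1 is also made by platelets and leukocytes, whose part in its signal was not tested. On A the leukocyte sum, over 3 of 9 listed genes, was 5854 and 8101 in kidneys 4 and 5 and 7417 to 10019 in Dahl S kidneys. The platelet sum there, over 2 of 5 listed genes, was 1265.5 and 1586.5 in kidneys 4 and 5 and 1256.8 to 1541.8 in Dahl S kidneys. Summed leukocyte marker signal on B, over 4 of 9 listed genes, was 8684 and 10745 in congenic kidneys and 8252 to 12672 in Dahl S kidneys, and the platelet marker Gp9, 1 of 5 listed and under the filter, was 348.0 and 472.8 in congenic kidneys against 155.3 to 524.8 in Dahl S kidneys.

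Vwf, the glycoprotein that tethers platelets, was near the limit of measurement. Its probe set U50044cds_at lay below the floor in all 5 kidneys of A. The companion U50044cds_g_at measured 90.4 and 88.1 in kidneys 4 and 5 and 91.9, 97.4 and 111.4 in Dahl S kidneys, all close to the floor of 85.1. No order of the kidneys is read from it.

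**Figure D3:**
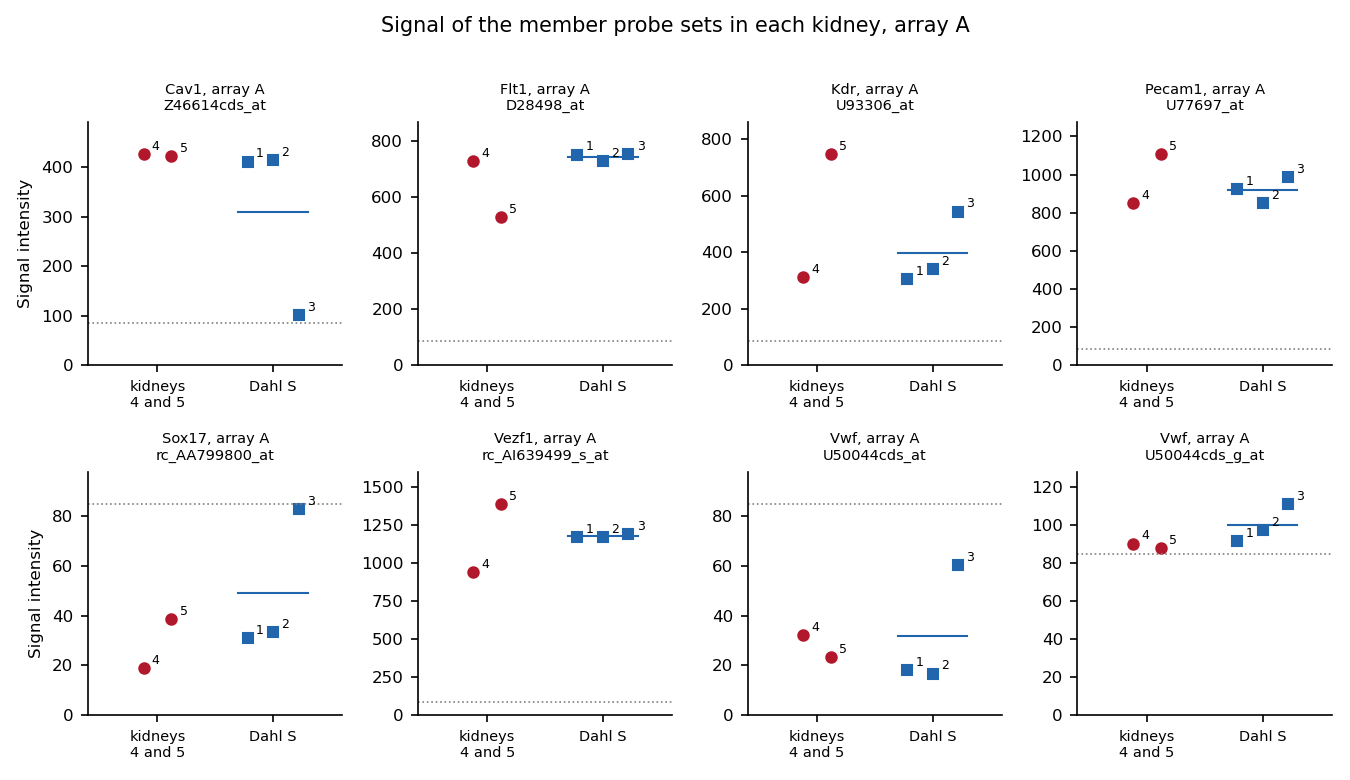
Signal intensity (linear axis from 0) of the 8 member probe sets of array A in each kidney. Red circles are kidneys 4 and 5, whose strain is unsettled on this array, blue squares Dahl S kidneys 1 to 3 with their mean as a bar, and the dotted line the floor; Vezf1, Pecam1 and Kdr have kidney 5 highest, Cav1 has Dahl S kidney 3 alone far below the rest, and Sox17 and 1 Vwf probe set lie below the floor.

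Cav1, the main coat protein of caveolae and abundant in endothelium, did not separate the strains on B. The probe set rc_AI012208_at measured 2315.7 and 2885.3 in congenic kidneys and 2819.3, 1847.0 and 1670.9 in Dahl S kidneys, and rc_AI029942_at measured 806.8 and 657.1 in congenic kidneys against 507.7, 639.7 and 724.5 in Dahl S kidneys. The log2 differences were 0.33 (SE 0.25) and 0.24 (SE 0.19), and the strain values overlapped on each. The kidneys stood in different orders on these 2 probe sets, Dahl S kidney 1 being high on the first and lowest on the second. On A, Z46614cds_at measured 427.0 and 423.5 in kidneys 4 and 5 and 411.8, 414.5 and 101.3 in Dahl S kidneys. Dahl S kidney 3 was alone far below the other 4, and kidneys 4 and 5 lay above kidneys 1 and 2 by little. Of the 8 member probe sets on A, this 1 had kidneys 4 and 5 both above the Dahl S range. Another 1, the Vwf probe set close to the floor, had them both below. Either side together, the share was 13.7% of all A probe sets without the filter and 19% of those that reached it. Nothing is read from these counts.

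**Figure D4:**
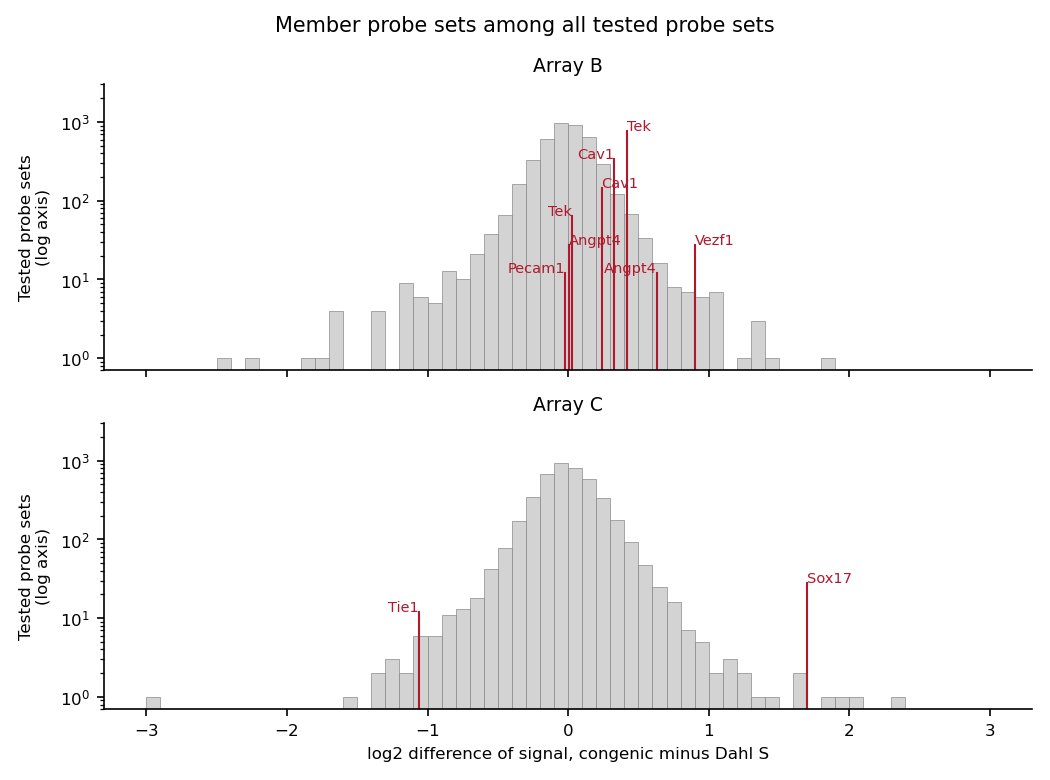
Distribution of the log2 difference, congenic minus Dahl S, over the 4385 tested probe sets of array B (top) and the 4420 of array C (bottom), with the tested member probe sets as labelled red lines; the count axis is logarithmic. On B the members reach from −0.02 (Pecam1) to 0.90 (Vezf1), and on C they are −1.06 (Tie1) and 1.70 (Sox17).

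Other endothelial, angiogenic and caveolar genes were taken from 4 lists, of which 58 of 75 genes were on the arrays. On B, 19 were tested and 0 passed the threshold in limma. The differences of 13 were negative and of 6 positive, with a median log2 difference of −0.07 beside −0.0052 over all tested probe sets. On C, 15 were tested and 0 passed, 6 negative and 9 positive, with a median of 0.05 beside −0.0099. An unadjusted p under 0.05 was found for 1 probe set of these lists on B, that of Ramp2, and for 1 on C, that of Tal1, against 153 of 4385 and 274 of 4420 probe sets in all. Ramp2, a receptor activity modifying protein whose gene is on chromosome 10, is named after its values were seen. Its probe set rc_AI011176_f_at measured 685.6 and 585.9 in congenic kidneys and 1106.5, 1375.4 and 811.8 in Dahl S kidneys (log2 difference −0.76, limma adjusted p = 0.998). The brighter Ramp2 probe set rc_AI012814_at measured 4427.3 and 4703.0 in congenic kidneys and 4092.2 to 4878.5 in Dahl S kidneys, which overlapped.

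Of the VEGF and angiopoietin list, the co-receptor Nrp1 measured 962 ± 92.6 in congenic kidneys (SD, n = 2) and 1168 ± 116 in Dahl S kidneys (SD, n = 3) on B (log2 difference −0.28, limma adjusted p = 0.998). Vegfa, the main ligand of Kdr, measured 5083 ± 221 in congenic kidneys and 5168 ± 300 in Dahl S kidneys (log2 difference −0.02). Angpt2, which competes for Tek, measured 600 ± 40.3 in congenic kidneys and 597 ± 112 in Dahl S kidneys on C. On A, Nrp1 measured 932.6 and 1229.1 in kidneys 4 and 5 and 1125.3 to 1185.1 in Dahl S kidneys, with kidney 4 below and kidney 5 above all of them. Vegfa measured 1102.8 and 1123.7 in kidneys 4 and 5 and 979.1 to 1255.6 in Dahl S kidneys there, and Vegfb 677.2 and 738.9 in kidneys 4 and 5 and 697.3 to 799.4 in Dahl S kidneys.

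Among other endothelial genes, Ehd3, an endocytic recycling protein of glomerular endothelium in mice, measured 2036 and 2084 in congenic kidneys and 2324 to 2985 in Dahl S kidneys on B. On C it measured 1146 and 1053 in congenic kidneys and 1151 to 1536 in Dahl S kidneys. Its strain values did not overlap on either design, but it did not pass (limma adjusted p = 0.998 on B and 0.865 on C). The endothelial cadherin Cdh5 measured 1022 ± 48.5 in congenic kidneys and 925 ± 34.9 in Dahl S kidneys on B, while on C its values of 633.2 and 663.1 in congenic kidneys lay within the 623.4 to 668.4 of Dahl S kidneys. Emcn, a capillary sialomucin, measured 3487 ± 417 in congenic kidneys and 3083 ± 144 in Dahl S kidneys on C. Icam2, a leukocyte adhesion molecule also on chromosome 10, measured 629 ± 250 in congenic kidneys and 653 ± 68.0 in Dahl S kidneys on C. The coagulation inhibitor Tfpi measured 740 ± 67.0 in congenic kidneys and 852 ± 140 in Dahl S kidneys on B. Cdh5, Nrp1 and Ehd3 were among the 4 of 19 genes whose strain values did not overlap on B, where this held for 17.2% of all tested probe sets.

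Of the transcription factors, Tal1 measured 966 and 1038 in congenic kidneys and 668 to 801 in Dahl S kidneys on C (log2 difference 0.48, SE 0.15, limma adjusted p = 0.775). Tal1 is a basic helix-loop-helix factor of blood and endothelial precursors. Tal1 and Ehd3 were the 2 of 15 genes apart on C, where this held for 22.4% of all tested probe sets. Elk3 and Epas1 had opposite signs on the 2 designs, Elk3 at −0.14 on B and 0.32 on C, and Epas1 (HIF-2alpha) at 0.09 on B and −0.13 on C. Notch4 measured 2216 ± 119 in congenic kidneys and 2357 ± 142 in Dahl S kidneys on B. On A, Notch1 measured 1012.8 and 953.0 in kidneys 4 and 5 and 749.7 to 1004.2 in Dahl S kidneys, and Thbd, an anticoagulant receptor of the surface list, 1562.1 and 1866.3 in kidneys 4 and 5 and 1659.3 to 1769.0 in Dahl S kidneys.

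Of the caveolar list, Cav2, the partner of Cav1, measured 1843 ± 438 in congenic kidneys and 2152 ± 217 in Dahl S kidneys on B. Ehd2, an ATPase at the caveolar neck, measured 2597 ± 242 in congenic kidneys and 2340 ± 493 in Dahl S kidneys on C. Pacsin2, a membrane-bending protein, measured 2819 ± 126 in congenic kidneys and 2577 ± 249 in Dahl S kidneys on C. On A, Cavin3 measured 1144.2 and 1326.4 in kidneys 4 and 5 and 1105.6 to 1168.5 in Dahl S kidneys. Of the 12 genes of the 4 lists taken by mean signal on A, which also include Klf4, Jag1, Icam1, Vcam1, Pacsin2 and Cav3, 0 had kidneys 4 and 5 both on one side of the Dahl S range.

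Markers of other cell types and a sign of RNA quality were measured in the same kidneys. The podocyte marker Podxl, which endothelium also carries, measured 5106 and 3188 in congenic kidneys and 2469 to 3010 in Dahl S kidneys on B. Of 5 listed podocyte markers, 2 were present on B, Podxl and Wt1, the latter under the filter. Wt1 measured 364.2 and 185.7 in congenic kidneys and 221.5 to 236.6 in Dahl S kidneys, which overlapped. Their summed signal, mostly that of Podxl, was 5470 and 3374 in congenic kidneys against 2691 to 3239 in Dahl S kidneys. Synpo on A measured 511.5 and 398.2 in kidneys 4 and 5 and 419.5 to 510.1 in Dahl S kidneys. On C, where Podxl was the 1 podocyte marker, it was 1887 and 1246 in congenic kidneys against 777 to 1327 in Dahl S kidneys and overlapped. Fibroblast markers of C, 4 of 5 listed, summed to 12707 and 17158 in congenic kidneys and 16734 to 21485 in Dahl S kidneys. Mural markers, 4 of 7, summed to 4621 and 5599 in congenic kidneys and 5421 to 6285 in Dahl S kidneys. Both sums overlapped. By gene, 3 fibroblast markers were tested on C, with log2 differences of −0.47 to −0.0051, and Col1a2 and Dcn did not overlap. Of 4 mural markers tested, 2 were lower and 2 higher in congenic kidneys, and Acta2, lower, did not overlap. Over all tested probe sets of C, 22.4% did not overlap. On A, all 5 fibroblast markers summed to 19305 and 21020 in kidneys 4 and 5, below the 23319 to 29135 of Dahl S kidneys. The 3′ over 5′ signal ratio of the GAPDH control, a sign of RNA quality, was 1.05 and 1.05 in congenic kidneys and 1.09 to 1.11 in Dahl S kidneys on C, and 1.07 and 1.17 in congenic kidneys against 1.11 to 1.18 in Dahl S kidneys on B. On A it was 1.04 in both kidneys 4 and 5 and 1.06 to 1.07 in Dahl S kidneys. The strain values of this ratio did not overlap on C and overlapped on B. The part of these in the member differences was not tested. The summed signal of the other endothelial surface and secreted genes was 22880 and 24685 in congenic kidneys and 24107 to 25088 in Dahl S kidneys on B (12 of 32 genes), and 10302 and 9549 in congenic kidneys against 9459 to 10180 in Dahl S kidneys on C (9 of 32 genes).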

How the data were processed

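Signal was measured on 15 single-channel oligonucleotide arrays of 3 designs, with each strain taken from the sample description. The deposited values are linear intensities, 1 per probe set, which the authors had already scaled per array, as their trimmed means show; the software and any background correction were not given in the sources used here. Symbols came from the platform annotation and were updated by gene identifier to RefSeq GRCr8 (6985 of 7006 probe sets with 1 symbol on A, 5333 of 5351 on B, 5804 of 5821 on C). Values were floored at the 25th percentile of the design and taken to log2; the 59 control probe sets of each design and probe sets with a mean below the design's median were left out, and lists used the brightest probe set of a gene. Congenic kidneys were compared with Dahl S kidneys on B and on C with lmFit and eBayes of limma 3.58.1 (R 4.3.3), Benjamini-Hochberg adjustment over the design and a threshold of 0.05. Standard errors (SE) are those of that fit. The procedure was tested on simulated data. The members and lists were chosen with earlier results of these data known. The text names all member probe sets, from each other list up to 3 genes with the smallest p on B and C or the highest mean signal on A, and the 2 nearest patterns for Vezf1 and Angpt4. Alternatives changed the floor, normalization, filter, variance model and the arrays included. The number of arrays limits precision. Other genes of the lists, and 1 that the rule would have named, are not reported here.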

Additional observations from a re-analysis of the deposited data

How the results depend on the processing

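The 10 tested member probe sets on B and C were fitted again under 12 alternatives (110 refits in which they were tested). No count past the threshold is given for them, because the genes were chosen with results of this contrast known. The direction changed in 10 of these refits, all for probe sets with a difference near 0, namely those of Pecam1, rc_AA956241_at of Angpt4 and rc_AI058402_at of Tek. Vezf1 and Angpt4 had been chosen from B, and the Sox17 and Tie1 probe sets of C were tested only through the strain in which they were high. Their ranges are therefore descriptions. The Sox17 difference on C ranged from 1.08 to 2.14 and that of Tie1 from −1.37 to −0.76. The Vezf1 difference on B ranged from 0.74 to 1.02 and that of Angpt4 (rc_AA851004_f_at) from 0.55 to 0.71. With a filter at the 75th percentile only the Pecam1 probe set and rc_AI012208_at of Cav1 were still tested, and without Dahl S kidney 1 or 2 Tie1 fell under the filter on C. The count of 4 called probe sets on B stayed at 4 with an intensity trend and robust variance and was 3 without a filter. It was 1 with a floor at the 10th or the 40th percentile, quantile normalization, median scaling or the stricter filter. It ranged from 0 to 31 when 1 kidney was left out, with 31 without congenic kidney 5. The count of 0 on C was 2 without a filter and 1 with an intensity trend and robust variance, and it ranged from 0 to 35 when 1 kidney was left out, with 35 without congenic kidney 5. Where 1 congenic kidney was left, it was assumed to vary like the Dahl S kidneys. The cause was not tested. The number of member probe sets reaching the filter was 15 under each normalization. No paired analysis was possible because congenic and Dahl S kidneys share no replicate number. Probe sets near the floor, such as those of Vwf, could not be ordered.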
